A study of Mus musculus with 6 samples.

Results

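The 39 genes described here encode the proteins that copy chromosomal DNA and that supply its deoxynucleotides. They were chosen by gene name, and all 39 were found among the 34745 genes of the deposited count table. The table holds RNA sequencing counts for 3 libraries from BPA cultures and 3 libraries from untreated cultures. The BPA cultures were mouse spermatogonial stem cells, from which sperm production is maintained through life, kept for about 4 days in complete medium with 100 µM bisphenol A (BPA). BPA is a building block of plastics with weak oestrogen-like activity. The untreated cultures were the same kind of cells without BPA. Cells of both groups were of the cross DBA/2J X c57BL/6J, were labelled postnatal day 6 and were at passages 15 to 20. No vehicle is named for the untreated cultures, and if BPA came in a solvent, solvent and BPA cannot be told apart. Since the labels do not call the replicates separate cultures or animals, the spread between samples that the p-values rest on may be technical.

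DNA replication begins when the origin recognition complex, with CDC6 and CDT1, loads the ring-shaped MCM2-7 complex onto DNA, and geminin holds CDT1 in check so that origins are used once per cycle. CDC45 and the GINS complex then join the ring to form the active helicase, RPA coats the exposed single strand, polymerase alpha-primase lays down primers, and the clamp PCNA, placed by the loader RFC, holds polymerases delta and epsilon on the template. Ribonucleotide reductase, thymidylate synthase and dUTPase supply and guard the deoxynucleotides, and in dividing cells such as stem cell cultures most of these genes are transcribed most strongly around the start of S phase. The libraries are of whole cultures, so fewer cells in S phase and less RNA per cell cannot be told apart.

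Summed gene counts were 14232872 to 22286517 in BPA libraries and 13453280 to 19183912 in untreated libraries, with 13638 to 16013 genes counted per library. BPA replicate 2 stood apart from the other BPA libraries: the chi-square per degree of freedom between replicates was 64.2 and 84.5 for the pairs that hold it, and 18.9 to 25.4 for the other 4 pairs. Its log2 level against the mean of BPA replicates 1 and 3 went with the GC content of the transcript, with a Pearson r of 0.63 over 13273 genes and 0.65 over the 39 replication genes, points that all share the same 3 libraries. Where leaving out that library changed the call of a gene named below, both values are given. All 12 germ cell and spermatogonial markers were measured, with summed levels of 2113 to 2642 CPM (library-scaled counts, normalised with edgeR's TMM factors) in BPA libraries and 2574 to 2608 CPM in untreated libraries. Sertoli markers, of which 5 of 8 were tested and Fshr had 0 counts, summed to 119 to 155 CPM in BPA libraries and 46.3 to 59.1 CPM in untreated libraries. Fibroblast markers, with 7 of 10 tested, summed to 59.6 to 96.5 CPM in BPA libraries and 95.6 to 132 CPM in untreated libraries. Of 6 Leydig markers 1 was tested, at no more than 1.31 CPM, and Cyp17a1, Hsd3b1, Insl3 and Lhcgr had 0 counts. Markers of differentiating and meiotic germ cells, with 5 of 6 tested and Spo11 at 0 counts, summed to 222, 82.9 and 184 CPM in BPA libraries and 64.2 to 78.0 CPM in untreated libraries. In this last sum BPA replicate 2 lay nearer to the untreated libraries than to the other BPA libraries. In the Sertoli sum BPA replicate 2, at 155 CPM, was the BPA library furthest from the untreated ones. The part of these marker differences in the replication genes was not tested.

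Promoters of 32 of the 39 genes, from 250 bases before to 50 bases after the start of transcription, were taken from RefSeq (build GRCm38.p6). Promoters are shown because E2F and CCAAT sites are known control elements of replication genes. Letters of the E2F site (TTTCCCGC, TTTGGCGC, TTTCGCGC or TTTGCCGC, on either strand) were found for 13 of the 32 genes (40.6%) and for 2.6% of all 27025 genes with a promoter in the table. CCAAT, on either strand, was found for 21 of 32 (65.6%) against 41.1% of all genes, and TTTGAA, the letters of the cell cycle homology region, for 5 of 32 (15.6%) against 20.2%. The windows of Mcm3, Mcm5, Mcm6, Mcm7, Orc1, Pola1, Rfc3 and Gins3 held both E2F letters and CCAAT. Below are the promoters of 3 genes that fell under BPA and, for comparison, of Mcm6, which held 3 matches of E2F letters. Capitals mark matches to any of these letters on either strand, and the first 2 matches of E2F letters in Mcm6 overlap. The windows are chr16:18811923-18812222 on the minus strand for Cdc45, chr4:132768110-132768409 on the plus strand for Rpa2, chr7:102441445-102441744 on the plus strand for Rrm1 and chr1:128359656-128359955 on the minus strand for Mcm6.
Cdc45: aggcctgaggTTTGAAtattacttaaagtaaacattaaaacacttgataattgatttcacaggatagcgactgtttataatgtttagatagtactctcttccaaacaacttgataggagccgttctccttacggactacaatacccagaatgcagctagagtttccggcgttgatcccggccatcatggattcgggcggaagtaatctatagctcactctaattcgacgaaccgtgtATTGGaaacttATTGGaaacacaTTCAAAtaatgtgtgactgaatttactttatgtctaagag
Rpa2: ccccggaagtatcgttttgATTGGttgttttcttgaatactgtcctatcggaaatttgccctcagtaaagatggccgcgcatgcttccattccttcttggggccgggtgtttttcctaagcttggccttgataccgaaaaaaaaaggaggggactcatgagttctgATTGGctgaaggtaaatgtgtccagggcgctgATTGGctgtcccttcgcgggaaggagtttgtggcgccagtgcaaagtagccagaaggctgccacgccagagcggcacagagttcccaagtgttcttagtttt
Rrm1: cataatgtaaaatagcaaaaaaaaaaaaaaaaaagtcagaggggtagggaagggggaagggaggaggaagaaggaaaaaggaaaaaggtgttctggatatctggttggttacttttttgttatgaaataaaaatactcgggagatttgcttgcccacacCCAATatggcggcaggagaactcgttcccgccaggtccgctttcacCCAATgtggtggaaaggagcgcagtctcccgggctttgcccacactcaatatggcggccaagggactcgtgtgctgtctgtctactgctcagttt
Mcm6: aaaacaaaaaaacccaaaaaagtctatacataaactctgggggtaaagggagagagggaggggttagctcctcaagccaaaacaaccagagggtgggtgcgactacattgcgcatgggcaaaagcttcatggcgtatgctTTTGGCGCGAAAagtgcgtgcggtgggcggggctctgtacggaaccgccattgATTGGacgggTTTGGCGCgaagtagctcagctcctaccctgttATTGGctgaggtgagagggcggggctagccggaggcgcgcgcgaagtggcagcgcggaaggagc
The Cdc45 window holds 2 CCAAT matches and 2 TTTGAA matches, that of Rpa2 3 CCAAT matches, and that of Rrm1 2 CCAAT matches. None of these 3 windows holds the E2F letters searched, and that of Rfc5, which also fell, holds none of the letters. Of the 13 genes with E2F letters 0 passed the test described next (median log2 fold change -0.17, range -0.57 to 1.71), and of the 19 without them 4 were lower (median -0.41, range -0.87 to 1.08). Over all tested genes 6.28% were lower and 4.37% higher, so counts this small cannot tell the groups apart. Rfc2 and Pole, which also passed, had no promoter in the table and are not in these counts. These counts are a description, and a missing match says only that these letters are not in this window.

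With edgeR's quasi-likelihood test and a Benjamini-Hochberg adjusted p of 0.05 over 13287 tested genes, 5 of the 39 replication genes were lower under BPA and 1 was higher. The lower ones were Cdc45 (a subunit of the active helicase), Rpa2 (a subunit of the single-strand binding complex), Rfc2 and Rfc5 (small subunits of the clamp loader) and Rrm1 (the large subunit of ribonucleotide reductase), and the higher one was Pole (the catalytic subunit of polymerase epsilon). These are 12.8% and 2.56% of the set, where 6.28% of all tested genes were lower and 4.37% higher. The median log2 fold change, BPA over untreated, was -0.31 over the 39 genes (quartiles -0.55 and 0.16) and 0.10 over all tested genes. Of the 39 estimates 25 were below 0 and 14 above, and 22 of the 39 had a 95% interval within a 2-fold difference in either direction, against 4142 of the 13287 genes.

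The 3 BPA libraries lay below the 3 untreated libraries for 13 of the 39 genes (33.3%), where this was so for 15.7% of all tested genes. They lay above them for 3 of the 39 (7.69%), Mcm2, Prim2 and Pole, against 15.6% of all genes. The summed level of the 39 genes was 6841, 7816 and 6753 CPM in BPA libraries and 8248, 8522 and 8301 CPM in untreated libraries. Per library total alone, without TMM, the set took 7320, 7363 and 7428 CPM in BPA libraries, and 7852, 8079 and 8243 CPM in untreated libraries. The groups did not overlap in either sum. Per library total the BPA libraries lay below the untreated ones for 13 of the 39 genes again, against 14.2% of all genes, with Mcm5 and Lig1 in the count in place of Tyms and Dut, and above them for 3, Mcm2, Pole and Cdt1, against 19.2%.

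**Figure D1:**
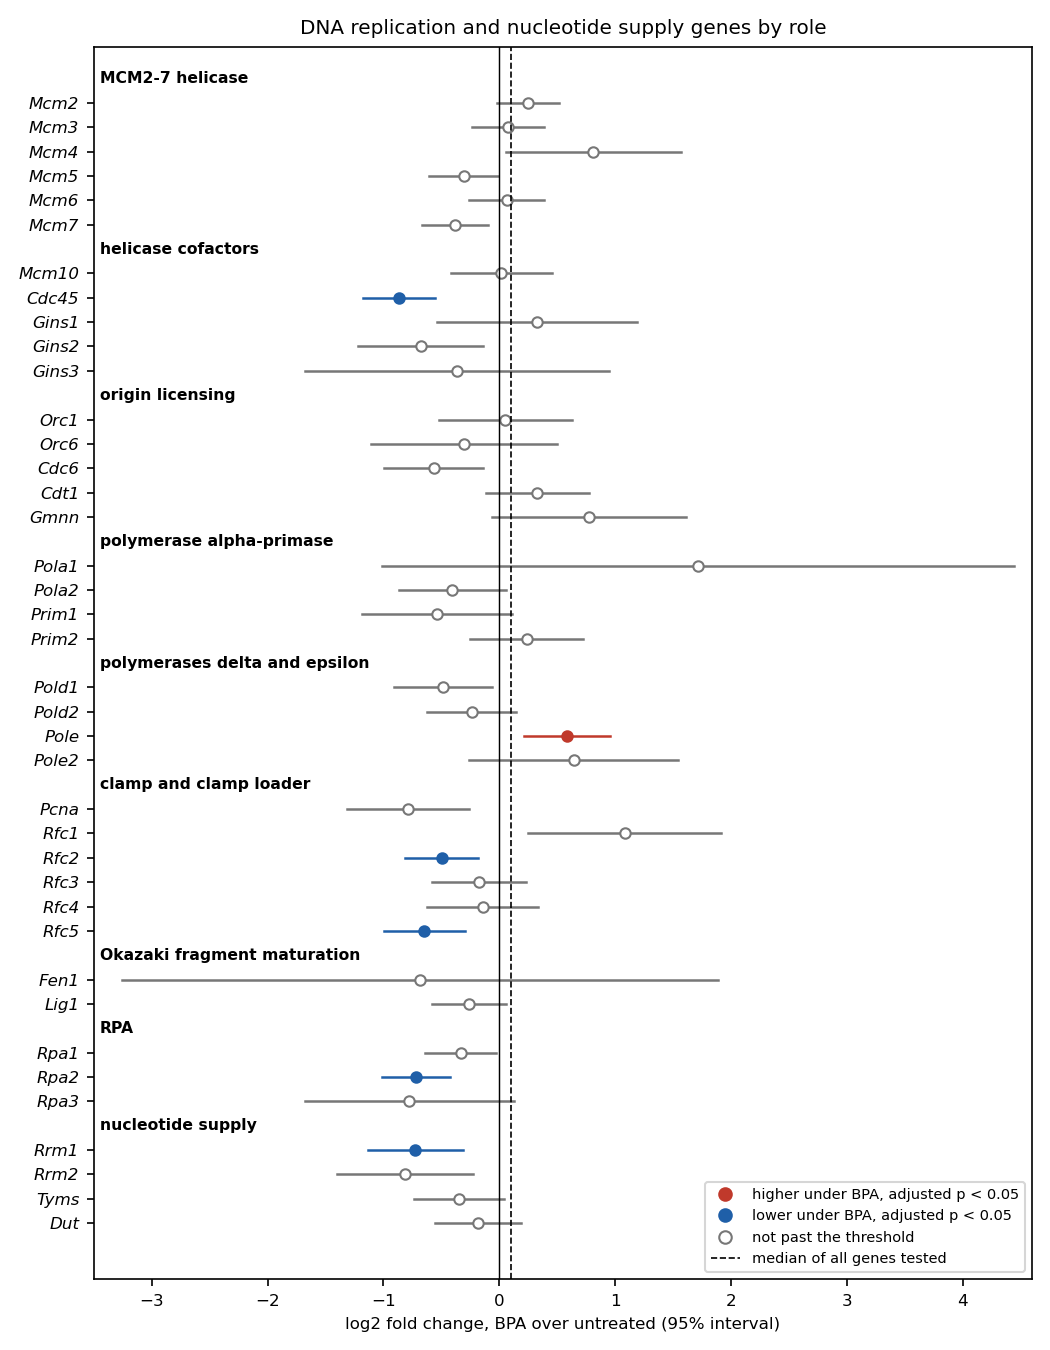
Log2 fold change (BPA over untreated) of each of the 39 genes with its 95% interval from edgeR, grouped by role; filled points passed an adjusted p of 0.05 and the dashed line is the median of all tested genes (0.10). The 5 lower genes lie in the helicase cofactor, clamp loader, RPA and nucleotide supply groups, Pole is the higher one, and the widest intervals belong to Pola1 and Fen1.

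Of the MCM2-7 genes, which encode the ring of the replicative helicase, 0 of 6 passed the test, and their median log2 fold change was 0.07. Mcm5 was the most abundant of all 39 genes per exon length, at a mean of 366 FPKM (the deposited counts scaled to exon length and library total) over the 6 libraries. It had 1030, 1332 and 1018 CPM in BPA libraries and 1402, 1483 and 1300 CPM in untreated libraries. BPA replicate 2 lay within the untreated range and the other BPA libraries below it, for a log2 fold change of -0.31 (SE 0.14, edgeR adjusted p = 0.188), and of -0.44 (edgeR adjusted p = 0.00285) without BPA replicate 2. Mcm7 averaged 698 ± 63.3 CPM in BPA and 908 ± 70.6 CPM in untreated libraries (SD, n = 3 each) with no overlap, at -0.38 (SE 0.13, edgeR adjusted p = 0.0888), or -0.45 (edgeR adjusted p = 0.0057) without BPA replicate 2. Mcm2 averaged 944 ± 39.4 CPM in BPA and 796 ± 44.5 CPM in untreated libraries, also with no overlap, at 0.25 (SE 0.12, edgeR adjusted p = 0.23), and it passed as higher with scaling by library size alone (0.35, edgeR adjusted p = 0.0237). The products of these genes form 1 ring with equal shares of each subunit, while the 6 estimates ran from -0.38 for Mcm7 to 0.81 for Mcm4. Mcm4 had 67.6, 36.1 and 78.2 CPM in BPA libraries and 37.5, 19.1 and 47.0 CPM in untreated libraries. Its groups overlapped through BPA replicate 2, and its edgeR adjusted p was 0.167 with that library and 0.0233 without it.

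Cdc45 fell among the cofactors that turn the loaded ring into a moving helicase. It had 168, 166 and 146 CPM in BPA libraries and 292, 290 and 295 CPM in untreated libraries. All BPA libraries lay below all untreated ones, and the untreated libraries differed little among themselves. The log2 fold change was -0.87 (SE 0.14, 95% interval -1.18 to -0.56, edgeR adjusted p = 0.00271), the lowest of the 39 estimates. The gene (ENSMUSG00000000028) spans 18780447 to 18811987 of chromosome 16 on the minus strand in mm10. Cdc45 held the threshold when each of the 6 libraries was left out (highest edgeR adjusted p = 0.0303). The GINS subunit genes and Mcm10, which helps the helicase to start, did not pass. Gins2 had 23.9, 26.8 and 29.5 CPM in BPA libraries and 40.1, 53.3 and 35.2 CPM in untreated libraries, without overlap (-0.68, SE 0.25, edgeR adjusted p = 0.107). On 67.3% of its exon length Gins2 overlaps Gse1 on the opposite strand, and the library kit does not mark strand, so reads of the pair cannot be told apart. Mcm10, Gins1 and Gins3 were at 0.02, 0.32 and -0.36 on the log2 scale (edgeR adjusted p = 0.972, 0.666 and 0.763), and Gins4, the GINS subunit outside the 39 genes, was at -0.60 (edgeR adjusted p = 0.0624, or 0.036 without BPA replicate 2).

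Of the 5 licensing genes, which prepare origins before S phase, 0 passed, with a median of 0.05. Cdt1, which brings the MCM ring to origins, was the second most abundant of the 39 genes per exon length (143 FPKM). It had 293, 486 and 274 CPM in BPA libraries and 298, 269 and 271 CPM in untreated libraries. Only BPA replicate 2 lay outside the untreated range, and the log2 fold change was 0.33 (SE 0.20, edgeR adjusted p = 0.343), or 0.02 without that library. When each library was corrected for both GC content and gene length, Cdt1 passed as higher with all libraries (0.62, edgeR adjusted p = 0.00284) and without BPA replicate 2 (0.59, edgeR adjusted p = 0.00261). Cdc6, the loading ATPase, averaged 49.5 ± 4.99 CPM in BPA and 73.4 ± 9.49 CPM in untreated libraries (SD, n = 3 each) with no overlap (-0.57, SE 0.20, edgeR adjusted p = 0.0917, or 0.0445 without BPA replicate 2). After the same correction it passed as lower (-0.78, edgeR adjusted p = 0.00629). Gmnn, which encodes geminin, the inhibitor of CDT1, had 27.0, 10.5 and 16.1 CPM in BPA libraries and 11.6, 9.64 and 10.1 CPM in untreated libraries, with overlap (0.77, SE 0.38, edgeR adjusted p = 0.235). Orc1 and Orc6, subunits of the origin recognition complex, were at 0.05 and -0.30 (edgeR adjusted p = 0.93 and 0.664).

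**Figure D2:**
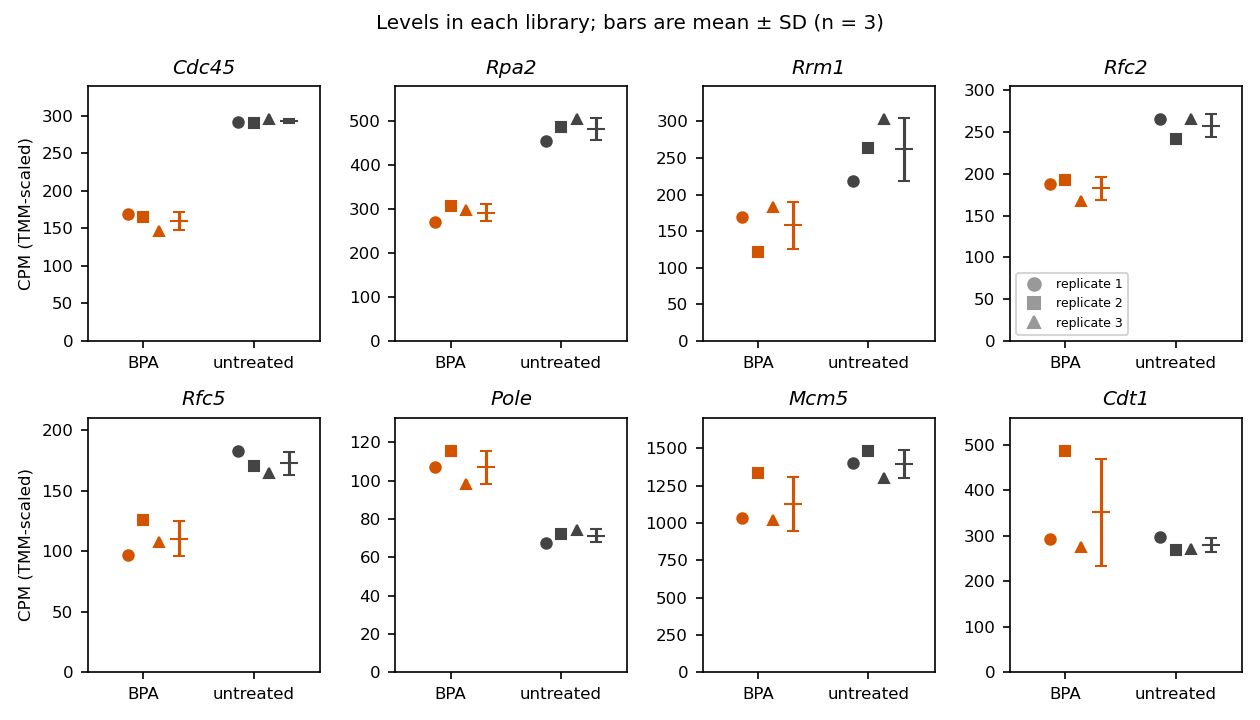
TMM-scaled CPM of 8 genes in each of the 3 BPA and 3 untreated libraries, with mean ± SD (n = 3) beside the points and marker shapes for the replicate numbers. Cdc45, Rpa2, Rrm1, Rfc2 and Rfc5 lie lower and Pole higher in all BPA libraries, while the Mcm5 groups overlap through BPA replicate 2 and the Cdt1 groups through BPA replicates 1 and 3.

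Polymerase alpha-primase, which starts each new strand with a short primer, had 0 of 4 genes past the threshold and a median of -0.09. Pola2, its accessory subunit, had 75.3, 102 and 62.7 CPM in BPA libraries and 108, 90.5 and 120 CPM in untreated libraries. The groups overlapped through BPA replicate 2 (-0.41, SE 0.21, edgeR adjusted p = 0.26), and Pola2 passed as lower without that library (-0.62, edgeR adjusted p = 0.0215). Pola1, the catalytic subunit, was the least abundant of the 39 genes (0.165 FPKM). Its raw counts, few and uneven between replicates, were 23, 23 and 113 in BPA libraries and 7, 1 and 24 in untreated libraries. Only a very large difference would have been detectable (1.71, 95% interval -1.01 to 4.44, edgeR adjusted p = 0.432). The primase genes Prim1 and Prim2 were at -0.54 and 0.24 (edgeR adjusted p = 0.287 and 0.563).

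Pole was the gene that rose. It had 107, 116 and 98.5 CPM in BPA libraries and 67.6, 72.0 and 74.2 CPM in untreated libraries, with no overlap. The log2 fold change was 0.59 (SE 0.17, 95% interval 0.21 to 0.96, edgeR adjusted p = 0.047). Pole has the longest exon sequence of the 39 genes (13716 bases; chromosome 5, 110286306 to 110337474, mm10), and long genes as a whole were higher: the median log2 fold change of all genes was -0.17 in the shortest 20% and 0.32 in the longest 20%. After a correction for gene length Pole was at 0.35 (edgeR adjusted p = 0.252) and did not pass. Leaving out BPA replicate 2 kept the call, and leaving out any other library lost it (edgeR adjusted p = 0.0685 to 0.185). Its accessory partner Pole2 was at 0.64 (SE 0.42, edgeR adjusted p = 0.367). The lagging-strand polymerase genes were below 0 and did not pass in the uncorrected test of all libraries. Pold1, the catalytic subunit of polymerase delta, had 361, 568 and 328 CPM in BPA libraries and 597, 641 and 524 CPM in untreated libraries (-0.49, SE 0.20, edgeR adjusted p = 0.141). BPA replicate 2 lay within the untreated range, and without it Pold1 was at -0.77 (edgeR adjusted p = 0.000491). With all libraries Pold1 passed as lower after the GC and length correction (-0.40, edgeR adjusted p = 0.0108). It also did with the replicate numbers as a block (-0.525, edgeR adjusted p = 0.0355). Pold2, an accessory subunit, had 148, 208 and 148 CPM in BPA libraries and 181, 219 and 195 CPM in untreated libraries, again with BPA replicate 2 in the untreated range (-0.24, SE 0.18, edgeR adjusted p = 0.435). Without it Pold2 was at -0.42 (edgeR adjusted p = 0.0304). After the GC and length correction with all libraries Pold2 was at 0.041 (edgeR adjusted p = 0.878).

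The sliding clamp and its loader held 2 of the 5 lower genes. Rfc5 had 97.2, 126 and 108 CPM in BPA libraries and 183, 170.5 and 165 CPM in untreated libraries, with no overlap (-0.65, SE 0.16, edgeR adjusted p = 0.0259). Rfc2 had 188, 193 and 167 CPM in BPA libraries and 265, 242 and 265 CPM in untreated libraries, with no overlap (-0.50, SE 0.14, edgeR adjusted p = 0.0463). Leaving out BPA replicate 2 kept both calls, and leaving out any other library lost them (edgeR adjusted p = 0.0556 to 0.132 for Rfc5 and 0.124 to 0.182 for Rfc2). Rfc2 also missed the threshold with no low-count filter (edgeR adjusted p = 0.0567). Genes on the opposite strand cover 10.7% of the exon length of Rfc5 (Wsb2) and 15.1% of that of Rfc2 (Lat2). The other small subunits were nearer to 0 in the uncorrected test of all libraries. Rfc4, the most abundant gene of the loader per exon length (34.0 FPKM), had 102, 60.6 and 70.8 CPM in BPA libraries and 99.8, 76.5 and 81.8 CPM in untreated libraries, with overlap (-0.14, SE 0.22, edgeR adjusted p = 0.741). Rfc3 was at -0.17 (SE 0.19, edgeR adjusted p = 0.615). After the GC and length correction Rfc3 was at -0.36 (edgeR adjusted p = 0.343). With that correction and without BPA replicate 2 it passed as lower (-0.73, edgeR adjusted p = 0.00894). Rfc1, the large subunit, had 48.3, 17.7 and 58.4 CPM in BPA libraries and 15.6, 21.2 and 22 CPM in untreated libraries. BPA replicates 1 and 3 lay above every untreated library and BPA replicate 2 did not, for 1.08 (SE 0.38, edgeR adjusted p = 0.095), and 1.45 (edgeR adjusted p = 0.00138) without BPA replicate 2. Pcna, the clamp itself, had 114, 52.0 and 93.2 CPM in BPA libraries and 151, 152 and 144 CPM in untreated libraries. The groups did not overlap and BPA replicate 2 was the lowest (-0.79, SE 0.24, edgeR adjusted p = 0.0587). Pcna passed without BPA replicate 1 (edgeR adjusted p = 0.0445) or BPA replicate 2 (-0.53, edgeR adjusted p = 0.0159). With libraries corrected for GC and length it passed too (-0.95, edgeR adjusted p = 0.00432).

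Rpa2, which encodes the middle subunit of the complex that coats single-stranded DNA, fell. It had 270, 308 and 299 CPM in BPA libraries and 455, 486.5 and 505 CPM in untreated libraries. The groups were far apart relative to the spread within each (-0.72, SE 0.14, 95% interval -1.01 to -0.43, edgeR adjusted p = 0.00607). The gene lies on the plus strand of chromosome 4 from 132768332 to 132778752 (mm10). Rpa2 held the threshold when each library was left out (highest edgeR adjusted p = 0.0486). Rpa1, the large subunit, averaged 243 ± 20.2 CPM in BPA and 306 ± 15.7 CPM in untreated libraries (SD, n = 3 each), also without overlap, at -0.33 (SE 0.14, edgeR adjusted p = 0.16), or -0.40 (edgeR adjusted p = 0.0187) without BPA replicate 2. With all libraries Rpa1 passed as lower after the GC and length correction (-0.49, edgeR adjusted p = 0.00912). Rpa3, the small subunit, was at -0.78 with a wider error (SE 0.42, edgeR adjusted p = 0.27). The lagging-strand genes that join Okazaki fragments did not pass. DNA ligase gene Lig1 had 361, 493 and 402 CPM in BPA libraries and 489, 525 and 489 CPM in untreated libraries, with overlap through BPA replicate 2 (-0.26, SE 0.15, edgeR adjusted p = 0.302, and -0.39, edgeR adjusted p = 0.0144, without that library). Fen1, the flap nuclease, had 27, 32 and 21 raw counts in BPA libraries and 56, 46 and 1 in untreated libraries, and 84.2% of its exon length overlaps genes on the opposite strand, so its level here is uncertain.

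Of the 4 nucleotide supply genes 1 passed the test, at a median log2 fold change of -0.54. In TMM-scaled CPM the BPA libraries lay below the untreated ones for all 4, where this was so for 15.7% of all tested genes, and per library total alone for Rrm1 and Rrm2 but not for Tyms and Dut. Rrm1 had 170, 122 and 183 CPM in BPA libraries and 218, 264 and 303 CPM in untreated libraries. The highest BPA library lay below the lowest untreated one, with a wider spread in both groups than for Cdc45 (-0.72, SE 0.19, 95% interval -1.14 to -0.31, edgeR adjusted p = 0.0303). Rrm1 missed the threshold without BPA replicate 1 or any untreated replicate (edgeR adjusted p = 0.0663 to 0.162) and with scaling by library size alone (-0.60, edgeR adjusted p = 0.0898). Rrm2, the small subunit that carries the radical, had 19, 23.2 and 17 CPM in BPA libraries and 32.6, 28.9 and 42.6 CPM in untreated libraries (-0.82, SE 0.27, edgeR adjusted p = 0.0773, and -0.95, edgeR adjusted p = 0.0262, without BPA replicate 2). Tyms, thymidylate synthase, averaged 80.0 ± 11.6 CPM in BPA and 102 ± 3.45 CPM in untreated libraries (SD, n = 3 each), at -0.34 (SE 0.18, edgeR adjusted p = 0.255). Dut, which encodes dUTPase, averaged 73.2 ± 2.42 CPM in BPA and 83.2 ± 4.98 CPM in untreated libraries, at -0.18 (SE 0.17, edgeR adjusted p = 0.552). Rrm2 and Tyms passed as lower after the GC and length correction (-0.91 and -0.68, edgeR adjusted p = 0.0347 and 0.01), and Dut was not called under any setting tried.

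**Figure D3:**
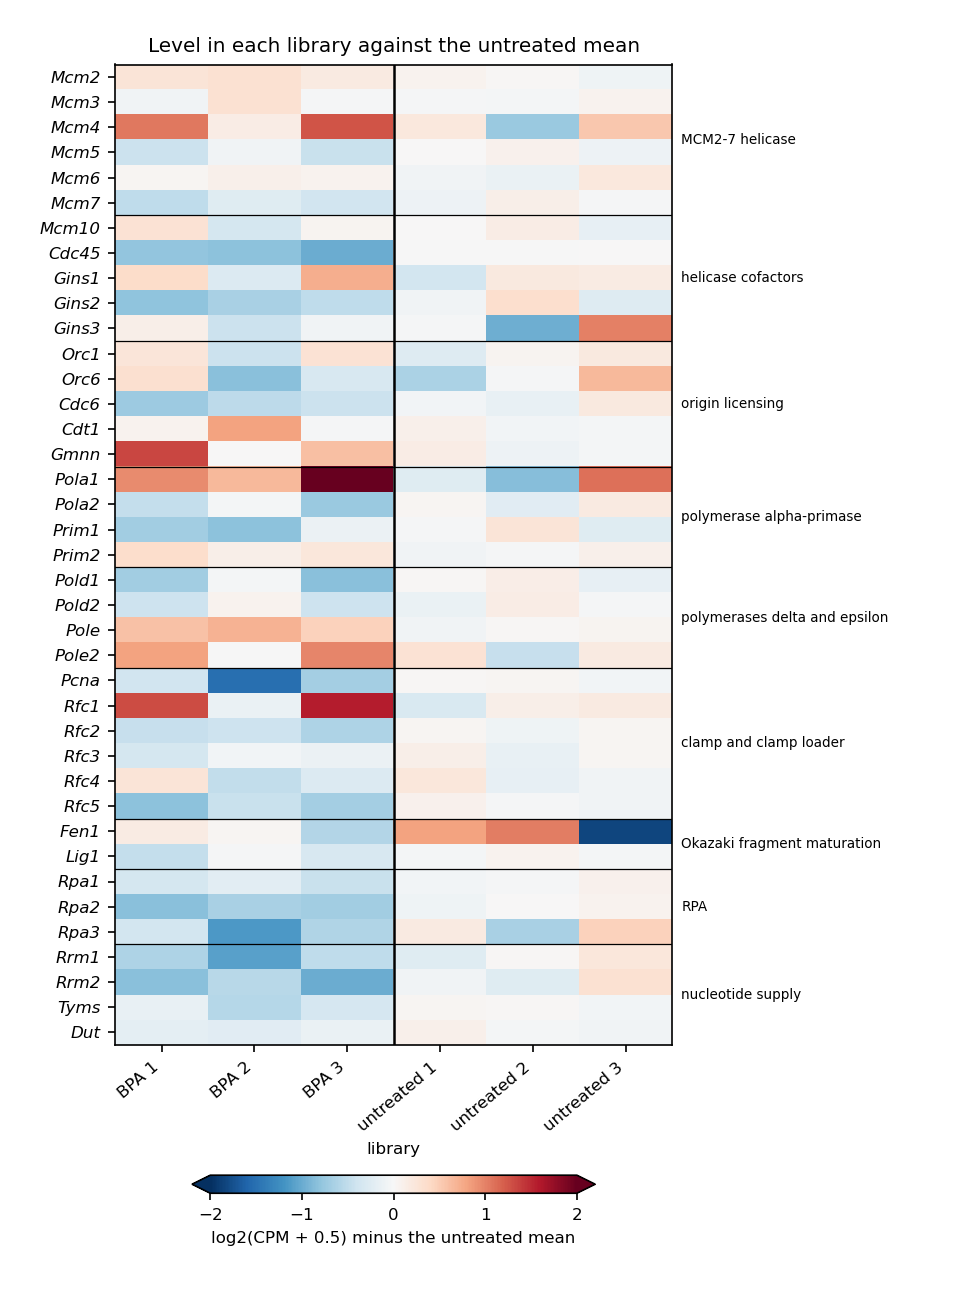
Level of each of the 39 genes in each library as log2(CPM + 0.5) minus the mean of the 3 untreated libraries, BPA libraries at left, with colours ending at -2 and 2. The Cdc45, Rpa2, Rrm1 and Rrm2 rows are lower in all BPA libraries, while Rfc1, Mcm4, Pcna and Cdt1 differ between BPA replicate 2 and the other BPA libraries.

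A further 73 genes of DNA replication and nucleotide synthesis were listed, of which 72 could be tested and Nme2 had too few counts. Of these, 6 were lower (8.33%) and 1 was higher (1.39%), where 6.28% and 4.37% of all tested genes were. The median log2 fold change was 0.04, against 0.10 over all tested genes. The lower ones included enzymes of the thymidine and deoxycytidine pools. Tk1, the thymidine kinase of dividing cells, had 83.0, 80.5 and 73.5 CPM in BPA libraries and 201, 181 and 203 CPM in untreated libraries (-1.30, SE 0.16, edgeR adjusted p = 0.000391). Dctpp1, a pyrophosphatase that clears deoxycytidine triphosphate and its modified forms, had 179, 232 and 180.1 CPM in BPA libraries and 445, 442 and 388 CPM in untreated libraries (-1.11, SE 0.16, edgeR adjusted p = 0.00103). In neither did the groups overlap. Dctpp1 has one of the shortest transcripts, and after the GC and length correction it was at -0.46 (edgeR adjusted p = 0.0229), or -0.32 without BPA replicate 2 (edgeR adjusted p = 0.0527). Rnaseh2c, a subunit of the nuclease that removes ribonucleotides from DNA, had 26.1, 21.7 and 20.4 CPM in BPA libraries and 89.5, 74.9 and 64.9 CPM in untreated libraries (-1.75, SE 0.22, edgeR adjusted p = 0.00058). Its partner subunits Rnaseh2a and Rnaseh2b were at -0.40 and 0.10 (edgeR adjusted p = 0.0904 and 0.909), and Rnaseh2a was past the threshold without BPA replicate 2 (edgeR adjusted p = 0.00629). Tk1, Dctpp1 and Rnaseh2c held the threshold when each library was left out.

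The other lower genes were Uhrf1, Chtf8 and Asf1b, each without overlap between the groups. Uhrf1, a reader of hemimethylated DNA behind the fork, had 394, 427 and 361 CPM in BPA libraries and 603, 631 and 567 CPM in untreated libraries (-0.61, edgeR adjusted p = 0.0143). Chtf8, a subunit of an alternative clamp loader, had 131, 199 and 151 CPM in BPA libraries and 271, 276 and 281.5 CPM in untreated libraries (-0.79, edgeR adjusted p = 0.014). Asf1b, a histone chaperone gene, had 204, 260.1 and 226 CPM in BPA libraries and 353, 330.4 and 313 CPM in untreated libraries (-0.53, edgeR adjusted p = 0.0391). Uhrf1 and Chtf8 passed without BPA replicate 2 or untreated replicate 3 and missed the threshold without any other library (edgeR adjusted p up to 0.0998 and 0.0757), and Asf1b passed without BPA replicate 2 alone (otherwise up to 0.182). The higher gene was Dbf4, the activating subunit of the kinase that fires origins. It had 29.0, 11.8 and 21.6 CPM in BPA libraries and 8.21, 9.41 and 7.76 CPM in untreated libraries (1.30, SE 0.38, edgeR adjusted p = 0.0474), and it passed without BPA replicate 2 and missed the threshold without any other library (0.111 to 0.238). Dbf4 also missed it with limma-voom, DESeq2 size factors, the replicate block and each length or GC correction. After the length correction alone its edgeR adjusted p was 0.0989. It passed with DESeq2 and with the other scalings and filters tried. By list, to be read against 4.37% higher and 6.28% lower over all tested genes, origin and fork factors had 1 of 17 higher and 0 lower (median 0.44). Polymerase and fork enzyme subunits had 0 of 15 higher and 2 lower, chromatin assembly genes 0 of 8 higher and 2 lower, and other deoxynucleotide enzymes 0 of 13 higher and 2 lower. De novo purine and pyrimidine synthesis had 0 of 17 genes past the threshold (median 0.03). Mcm8 and Mcm9, helicase genes of repair and meiosis, were at 1.02 and 1.51 and did not pass (edgeR adjusted p = 0.15 and 0.108, or 0.00463 and 0.0896 without BPA replicate 2). With all libraries Mcm9 passed as higher with the replicate block (edgeR adjusted p = 0.043) and with no low-count filter (edgeR adjusted p = 0.0387). The KEGG term for DNA replication in the deposited annotation held 33 tested genes, 24 of them among the 39, with 1 higher (3.03%) and 3 lower (9.09%).

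**Figure D4:**
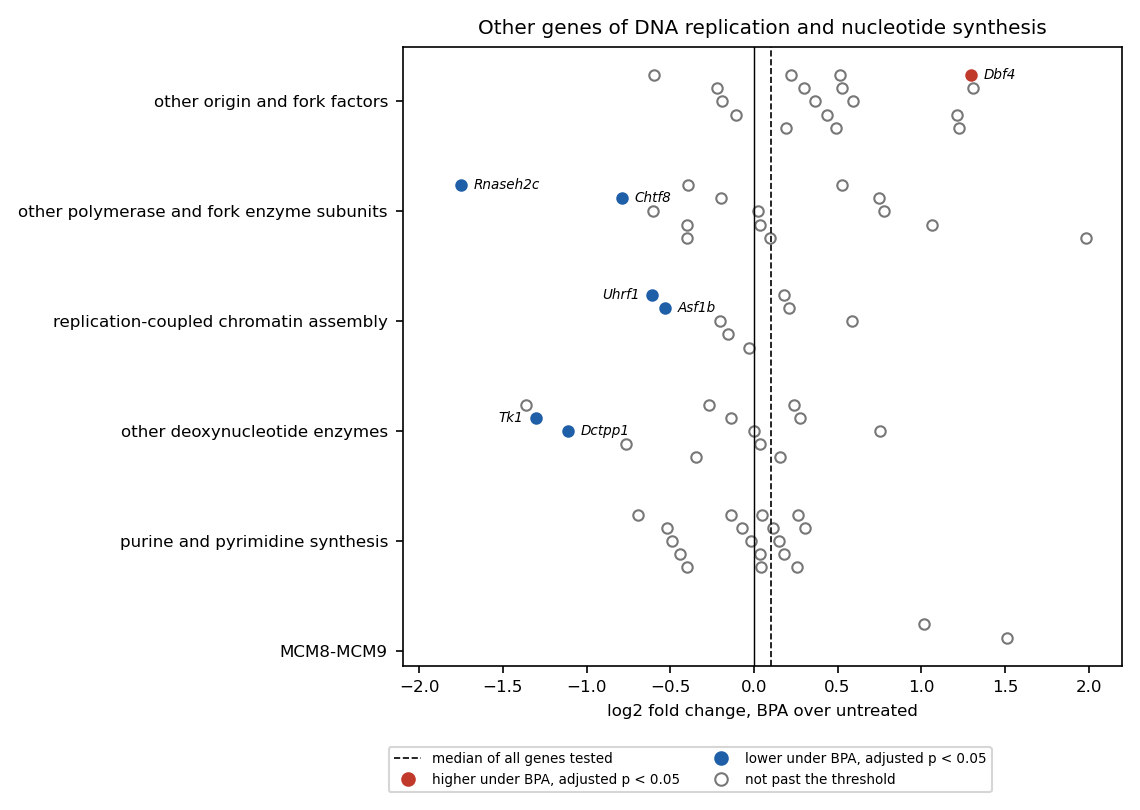
Log2 fold change (BPA over untreated) of the 72 other tested genes by list, with filled points for an adjusted p below 0.05 in edgeR and the dashed line at the median of all tested genes (0.10); height within a list only spreads the points. Tk1, Dctpp1, Rnaseh2c, Chtf8, Uhrf1 and Asf1b are lower and Dbf4 is higher.

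The number of replication genes past the threshold depended on BPA replicate 2. Without it 15 of the 39 were lower and 3 higher (Mcm4, Pole and Rfc1), where 11.7% and 8.81% of all tested genes were. After the GC and length correction 11 were lower and 1, Cdt1, was higher, where 7.85% and 7.46% of all genes were. With that correction and without BPA replicate 2, 13 were lower and 3 higher (Cdt1, Gmnn and Rfc1), where 8.34% and 8.2% of all genes were. Without any other single library 2 or 3 of the 39 were lower, where 2.06% to 3.43% of all genes were, and 0 were higher, where 1.18% to 2.44% were. Within the set BPA replicate 2 was the BPA library furthest from the other pair for 23 of 39 genes (59.0%), and for 52.7% of all tested genes. The 12 genes of 44.5% to 48.7% GC, with Pcna and Rfc1 among them, had a median log2 difference of -0.76 between BPA replicate 2 and the mean of the other BPA libraries, and the 3 genes above 56.1% GC, Cdt1, Pold1 and Pold2, one of 0.72. Over all genes in these GC ranges the medians were -0.30 and 0.50. Below 44.5% GC the median of the 7 replication genes was -0.51, against -0.94 over all genes. From 48.7% to 52.5% GC it was 0.097 over 12 genes, against 0.106. From 52.5% to 56.1% GC it was 0.20 over 5 genes, against 0.33. The set thus showed a larger difference than all genes in some GC ranges and a smaller one in others. Cdc45 and Rpa2 were lower and past the threshold under all 19 alternatives, and the remaining 4 genes past it with all samples lost it under some.

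**Figure D5:**
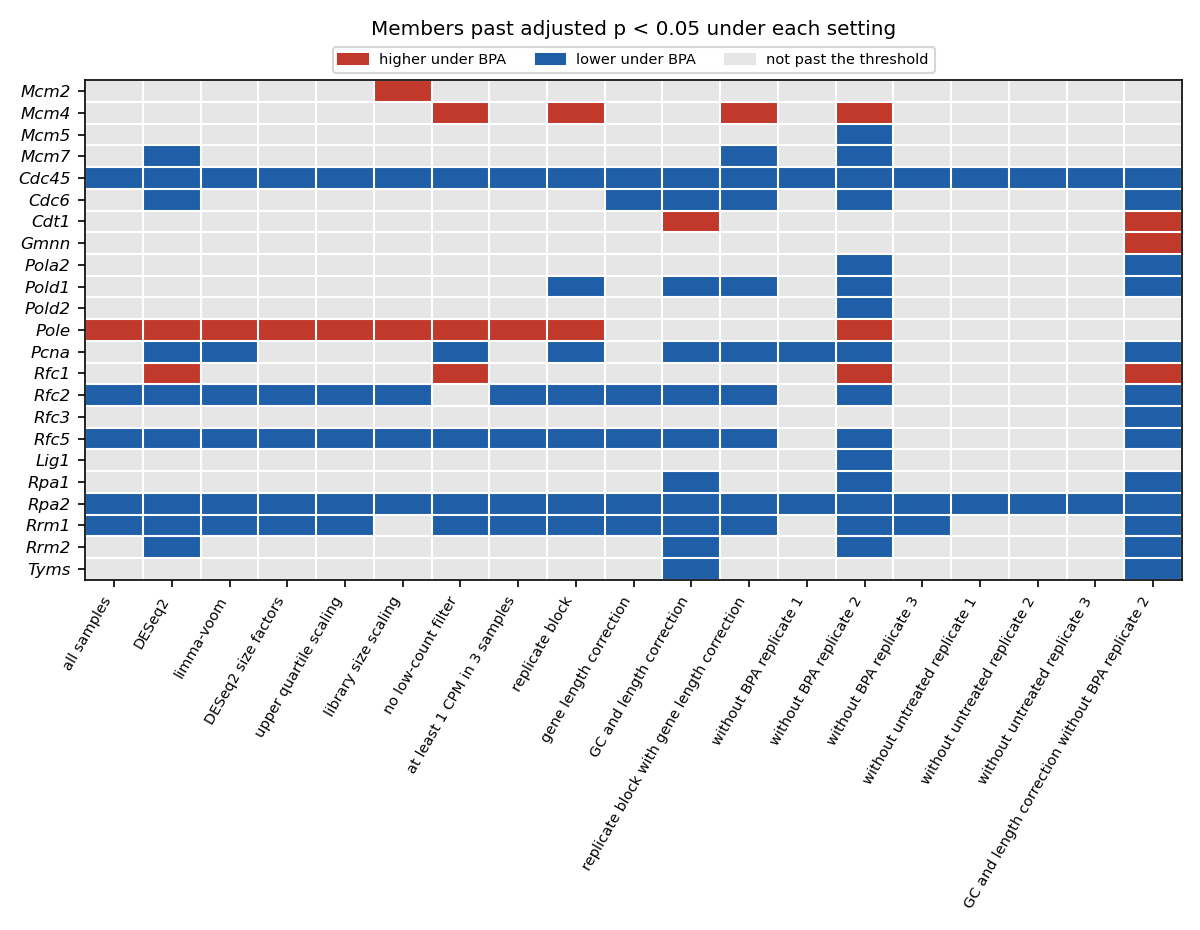
The replication genes past an adjusted p of 0.05 under at least 1 setting, with all samples at left and each alternative in its own column; blue is lower under BPA, red is higher and grey is not past the threshold. Cdc45 and Rpa2 are blue in every column, and the columns without BPA replicate 2 and with the GC and length correction hold the most blue cells.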

How the data were processed

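Total RNA of 3 BPA and 3 untreated samples was sequenced from TruSeq RNA v2 libraries (per the labels' protocols), a kit without strand marking. The submitters' processing notes name TopHat2 2.0.9, HTSeq and mm10. Strand and overlap settings of the counting were not found in the labels. The authors deposited raw counts per Ensembl gene and FPKM values. The deposited FPKM equal counts over length over the column sum, to a relative deviation of 9.2e-04, so they served only to give gene lengths and levels per length. Of the gene identifiers 98.6% were in GENCODE vM21, which gave GC content and overlaps between genes.

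The deposited counts were filtered with filterByExpr, scaled by TMM and tested with edgeR 4.0.16 (R 4.3.3; quasi-likelihood, BPA against untreated, no block, Benjamini-Hochberg over 13287 genes, threshold 0.05). The SE is the log2 fold change over the square root of F. The biological coefficient of variation was 0.44. The alternatives were DESeq2 1.42.0, limma-voom (limma 3.58.1), other scalings and filters, an FDR of 0.01, a replicate block, lowess corrections (span 0.3) for length or for GC content and length, and leaving out each library. The correction without BPA replicate 2 was chosen after seeing the data. The 39 genes and the lists were chosen with earlier results of these data known. Values per library are given for genes past the threshold, for the most abundant gene of each role by FPKM, and for others chosen after their values were seen.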

Additional observations from a re-analysis of the deposited data

How the results depend on the processing

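Cdc45 and Rpa2 stayed past the threshold under all 19 alternatives. The number of the 39 genes higher was 0 with the length correction or an FDR of 0.01, 2 with DESeq2, library size scaling or the replicate block, and 3 with no low-count filter or with the GC and length correction without BPA replicate 2, against 1. The shares higher over all tested genes in these settings, in that order, were 3.84%, 1.17%, 7.01%, 6.25%, 5.43%, 4.92% and 8.2%, against 4.37%. The number lower was 2 with an FDR of 0.01, 9 with DESeq2 or the block with length correction, 11 with the GC and length correction and 13 with that correction without BPA replicate 2, against 5. The shares lower over all tested genes, in that order, were 2.42%, 8.77%, 6.35%, 7.85% and 8.34%, against 6.28%. Leaving out 1 library gave 0 to 3 higher and 2 to 15 lower, where 1.18% to 8.81% and 2.06% to 11.7% of all genes were. Of the other pathway genes, 0 were higher with limma-voom, DESeq2 size factors, the length correction or an FDR of 0.01, 2 with library size scaling or the block with length correction, 3 with the block, 5 with DESeq2, 6 with no filter and 7 with the correction without BPA replicate 2, against 1. Over all tested genes 3.81% were higher with limma-voom, 4.31% with DESeq2 size factors and 4.43% with the block with length correction, and the other shares are those above. The number lower was 11 with DESeq2 and 3 with an FDR of 0.01, against 6, where 8.77%, 2.42% and 6.28% of all tested genes were. Leaving out 1 library gave 0 to 6 higher and 3 to 13 lower. Over all genes, 977 were higher with DESeq2, 927 with no filter, 991 with the GC and length correction, 1124 with it and without BPA replicate 2, and 155 with an FDR of 0.01, against 580. The number lower was 322 with an FDR of 0.01, against 835. Leaving out 1 library gave 162 to 1207 higher and 282 to 1600 lower. Pold2 changed sign with the GC and length correction (0.041, and 0.11 without BPA replicate 2). Rfc4 ran from -0.38 to 0.0072 when 1 library was left out, above 0 without BPA replicate 2. Neither passed there. The cause was not tested.

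With scaling by library size the median log2 fold change was 0.21 over all genes, against 0.10, and -0.19 over the 39 genes, against -0.31. It gave 831 higher and 786 lower genes, against 580 and 835. Deviations from the group mean correlated at -0.02, 0.06 and 0.07 for same-numbered replicates over 13287 genes. For the other pairs of a BPA and an untreated library the correlations ran from -0.08 to 0.03. With 3 libraries per group these values cannot decide whether the numbers pair the samples. With the replicate block 7 of the 39 genes were lower and 2 higher, where 7.41% and 5.43% of all tested genes were. The 6 genes past the threshold without the block were among them. The intervals of Pola1 and Fen1 reached a 2-fold difference in both directions, so such differences were not detectable with these libraries. The cause of the wide intervals was not tested.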
